A study of Mus musculus with 10 samples.

Results

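The keratin genes were taken as every row of the table whose symbol is Krt followed by a number and at most 1 letter, which gave 52 of 27919 genes, 27 of type I and 25 of type II. They were read in tumors of B16F10, a mouse melanoma line, made to overexpress Ly86 (4 tumors) or carrying the vector alone (3 tumors). All mice, Vector mice included, had received 4 rounds of antibodies to PD-1 and CTLA4, and the harvested tumors were snap-frozen. There were 10 libraries from 7 tumors, since 3 tumors (Ly86 tumor 1, Vector tumor 1 and Vector tumor 2) were sequenced in 2 pieces each. The promoter of the Ly86 construct, the number of clones and the age of the mice are not given in the sources used here. Tumors are numbered in the labels, but nothing says that they grew in separate mice, and p-values therefore reflect the spread among these 7 tumors, which may be partly technical.

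Keratins are the intermediate filament proteins of epithelial cells. A type I and a type II keratin pair to form the filament, and each epithelium is known by its pairs. Krt5 and Krt14 mark the basal layer of the epidermis and the outer root sheath of the hair follicle, and Krt1 and Krt10 replace them as cells move up and cornify. Krt6a, Krt6b, Krt16 and Krt17 belong to the follicle's outer layers and to epidermis after injury. Krt8, Krt18 and Krt19 belong to simple epithelia. Krt25 to Krt28 with Krt71 to Krt74 build the inner root sheath of the follicle, and the Krt31 to Krt40 and Krt81 to Krt87 genes build the hair shaft. Melanoma cells are of neural crest origin and their usual intermediate filament is vimentin.

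Levels are given in TPM, a measure of each transcript relative to all transcripts of its library that is corrected for gene length, so they can be compared between genes. The values carry no read depth, so the depth behind each value is unknown. Between 19304 and 21882 genes were above 0 in a library. All 11 genes of the melanocyte lineage list were above 0 in every library, with sums from 10453 TPM (Vector tumor 2, first piece) to 21540 TPM (Ly86 tumor 2). Vim, which encodes vimentin, lay between 1709 and 2661 TPM. For Ly86 itself the mean log2(TPM + 1) was 5.98 with an SD of 0.21 over the 4 Ly86 tumors, and 4.29 with an SD of 0.99 over the 3 Vector tumors, with no overlap of the tumors.

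Keratin RNA differed widely between libraries of both groups. The 52 genes summed to 5358 and 2362 TPM in the first and second piece of Ly86 tumor 1, to 266.5 TPM in Ly86 tumor 2, and to 8.59 and 10.5 TPM in Ly86 tumors 3 and 4. In the Vector tumors they summed to 33.7 and 679 TPM in the pieces of tumor 1, to 1056 and 8.39 TPM in the pieces of tumor 2, and to 560 TPM in tumor 3. Both groups thus held keratin-rich and keratin-poor libraries, and the poor ones included 1 piece of a tumor whose other piece was rich. At its highest the sum was 0.538% of a library's TPM and at its lowest 0.000843%. In a bulk library, fewer cells of a type and less RNA per cell cannot be told apart.

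Of the 52 genes, 41 reached 1 TPM in some library and 11 never did, the highest of these being Krt74 at 0.88 TPM. The number of genes at 1 TPM or more was 37 and 34 in the pieces of Ly86 tumor 1, 24 in Ly86 tumor 2, 1 in tumor 3 and 2 in tumor 4. It was 11 and 26 in the pieces of Vector tumor 1, 35 and 1 in those of tumor 2, and 32 in tumor 3. Krt80 and Krt87 were the only members above 0 in all 10 libraries. The highest library was the first piece of Ly86 tumor 1 for 22 members and its second piece for 24. For Krt15, Krt20, Krt24, Krt77 and Krt88 it was the first piece of Vector tumor 2, which Vector tumor 3 equalled for Krt88, and for Krt222 it was Ly86 tumor 4.

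**Figure D1:**
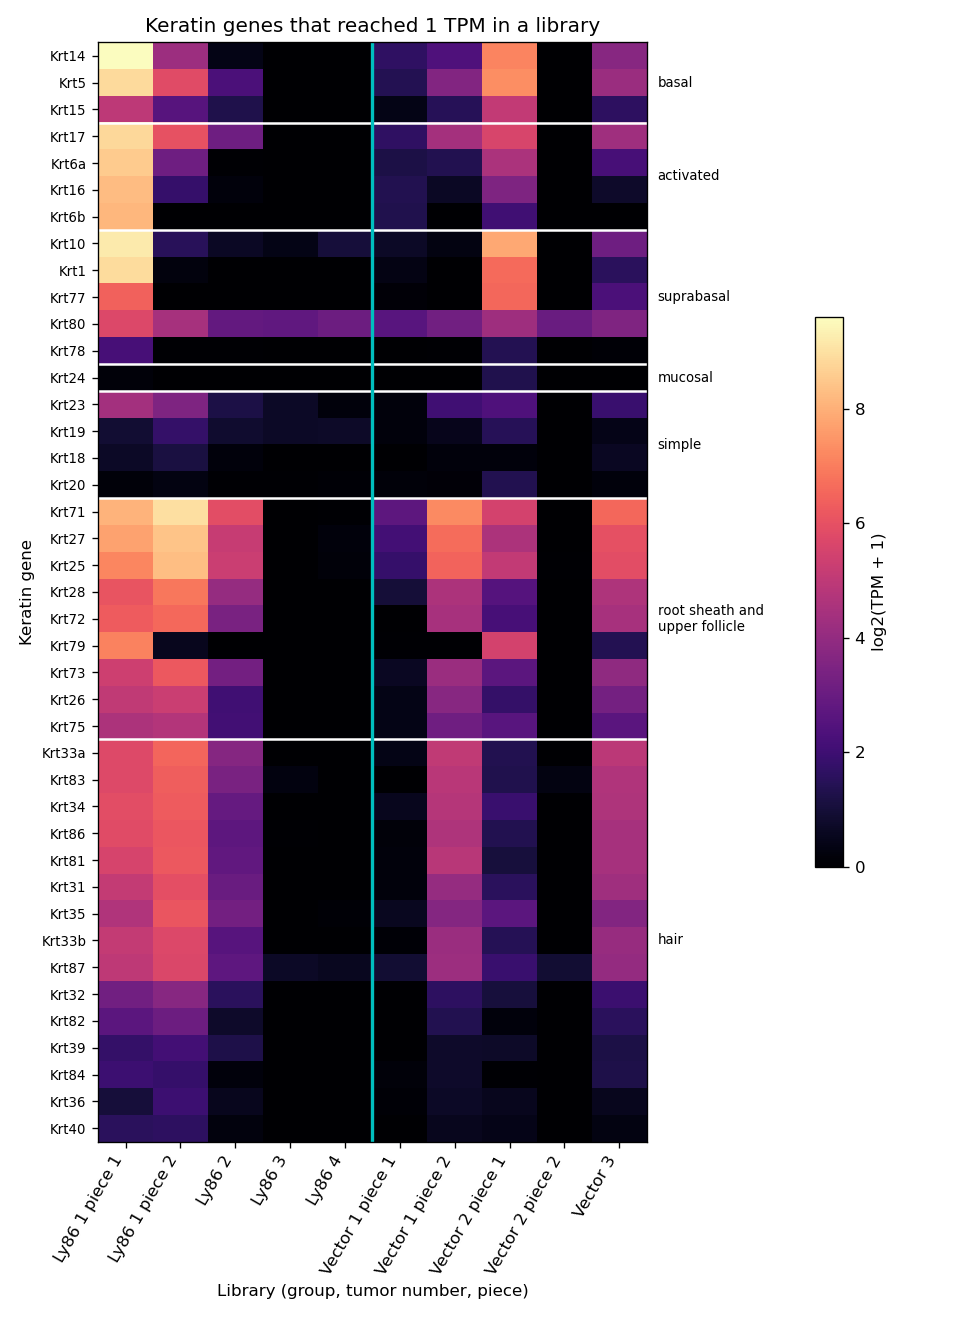
Each row is a keratin gene that reached 1 TPM in a library, ordered by class, each column is a library, and color gives log2(TPM + 1). Ly86 tumors 3 and 4 and the second piece of Vector tumor 2 are dark in nearly every row except Krt80, which was between 5.03 and 51.8 TPM in all libraries.

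The basal keratins Krt14, Krt5 and Krt15 were highest in 2 libraries, 1 from each group. Krt14 was at 777 and 17.6 TPM in the pieces of Ly86 tumor 1 and at 0.31 TPM in tumor 2, and was listed at 0 in tumors 3 and 4. In the Vector group it was at 2.16 and 4.16 TPM in the pieces of tumor 1, at 139 and 0 TPM in those of tumor 2, and at 12.4 TPM in tumor 3. Its partner Krt5 was at 473, 55.4, 3.96, 0 and 0 TPM in the 5 Ly86 libraries in the same order, and at 1.65, 11.5, 162, 0 and 17.2 TPM in the 5 Vector libraries. In the 6 libraries with at least 2 TPM of Krt14, the ratio of Krt5 to Krt14 ran from 0.609 in the first piece of Ly86 tumor 1 to 3.15 in its second piece. Krt15, a basal keratin that also marks the follicle's bulge, was at 30.1 and 5.01 TPM in the pieces of Ly86 tumor 1 and at 32.9 TPM in the first piece of Vector tumor 2.

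The keratins of injured or hyperproliferative epidermis, Krt6a, Krt6b, Krt16 and Krt17, peaked together in the first piece of Ly86 tumor 1, at 376, 282, 310 and 453 TPM. The next library, the first piece of Vector tumor 2, held 22.4 TPM of Krt6a, 3.14 TPM of Krt6b and 10.4 TPM of Krt16. For Krt17 the second piece of Ly86 tumor 1 came next, with 63.9 TPM. Krt17 reached further than the other 3 members: it was at 7.72 TPM in Ly86 tumor 2, at 2.20 and 20.1 TPM in the pieces of Vector tumor 1, at 47.6 and 0 TPM in those of tumor 2 and at 18.5 TPM in tumor 3. Krt6b was listed at 0 in 7 of 10 libraries. Krt6a and Krt6b share sequence, with 26.6% of the 100-base stretches of Krt6a transcripts also present in Krt6b and 30.1% of those of Krt6b in Krt6a, so how their reads were divided is uncertain.

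The suprabasal keratins were concentrated in the same 2 libraries as the basal ones. Krt1, the type II partner of differentiating epidermis, was at 476 TPM in the first piece of Ly86 tumor 1 and 0.18 TPM in the second. It was at 97.0 TPM in the first piece of Vector tumor 2, at 1.93 TPM in Vector tumor 3, at 0.29 TPM in the first piece of Vector tumor 1 and listed at 0 in the other 5 libraries. Krt10, the type I partner, was at 597, 1.83, 0.58, 0.31 and 1.03 TPM in the Ly86 libraries and at 0.62, 0.26, 231, 0 and 7.82 TPM in the Vector libraries. Krt1 and Krt10 were thus high in 1 piece and low in the other piece of the same tumor, once in each group. Krt77, another type II suprabasal keratin, was at 84.9 TPM in the first piece of Ly86 tumor 1, at 91.7 TPM in that of Vector tumor 2, at 3.91 TPM in Vector tumor 3 and at 0.10 TPM or less elsewhere. Krt78 reached 3.62 and 1.63 TPM in those first pieces and 0.06 TPM or less elsewhere. Krt2 and Krt9 stayed at or below 0.15 TPM.

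Krt80, a type II keratin grouped here with the suprabasal genes, was at 5.03 TPM or more in every library, unlike the others. Like Krt1 and Krt10 it was highest in the first piece of Ly86 tumor 1. It was lower in the second than in the first pieces of Ly86 tumor 1 and Vector tumor 2. It was at 51.8 and 20.8 TPM in the pieces of Ly86 tumor 1 and at 6.26, 6.03 and 7.48 TPM in Ly86 tumors 2 to 4. In the Vector libraries it was at 5.03 and 8.26 TPM in tumor 1, at 18.2 and 7.20 TPM in tumor 2 and at 10.7 TPM in tumor 3. In Ly86 tumors 3 and 4 and the second piece of Vector tumor 2, where the 3 basal and 4 activated keratins were listed at 0, Krt80 made up most of the keratin sum, and the suprabasal class stood at 73.8%, 81.3% and 85.8% of it. Krt80 was named for this pattern after its values were seen.

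Keratins of simple epithelia were low throughout. Krt8 never exceeded 0.47 TPM, Krt18 1.21 TPM, Krt7 0.09 TPM and Krt20 1.57 TPM. Krt19 was listed at 0 in the second piece of Vector tumor 2 and lay between 0.14 and 2.42 TPM in the other 9 libraries. Krt23, a type I keratin of glandular epithelia, was the one member of the class with a mean of at least 1 TPM. Its values were 19.4, 10.3, 1.31, 0.63 and 0.14 TPM in the Ly86 libraries and 0.14, 3.09, 4.25, 0 and 2.74 TPM in the Vector libraries, with the pieces of Ly86 tumor 1 highest and the second piece of Vector tumor 2 lowest. Of Krt8, 16.9% of the 100-base stretches also occur in the pseudogene Krt8-ps. The mucosal keratins Krt4 and Krt13 stayed at or below 0.24 TPM, and Krt24 was at 1.54 TPM in the first piece of Vector tumor 2 and at 0.11 TPM or less elsewhere.

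Among the inner root sheath keratins, Krt71, Krt25, Krt27 and Krt28 reached 1 TPM in 7 of 10 libraries, as did Krt5 and Krt17 of the epidermal classes. Krt71, the most abundant keratin by mean over tumors, was at 272 and 506 TPM in the pieces of Ly86 tumor 1, at 59.5 TPM in tumor 2, at 0 in tumor 3 and at 0.05 TPM in tumor 4. In the Vector libraries it was at 5.51 and 151 TPM in tumor 1, at 44.2 and 0 TPM in tumor 2 and at 92.0 TPM in tumor 3. The type I keratins of the same layer, Krt25 and Krt27, were at 319 and 343 TPM where Krt71 was at 506 TPM. Krt25 was at 145, 37.5, 2.54, 87.0, 32.6 and 58.9 TPM in the other 6 libraries with at least 2 TPM of Krt71, which were the first piece of Ly86 tumor 1, Ly86 tumor 2, both pieces of Vector tumor 1, piece 1 of Vector tumor 2 and Vector tumor 3. Krt27 was at 214, 35.7, 3.33, 99.7, 23.4 and 62.4 TPM in them. In the remaining 3 libraries both were at or below 0.14 TPM. Of the other members of the layer, Krt28 at 118 TPM, Krt72 at 95.9 TPM, Krt73 at 72.7 TPM and Krt26 at 37.2 TPM were highest in the second piece of Ly86 tumor 1, as was Krt75 of the neighbouring companion layer at 25.6 TPM. Krt74 was highest in the first piece, at 0.88 TPM.

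Krt71, Krt25, Krt27 and Krt73 kept close to fixed proportions in the 7 libraries with at least 2 TPM of Krt71. They are named because their ranges were the narrowest of the layer in these data. Ratios were not read below that level. In Ly86 tumor 4, for example, Krt71, Krt25 and Krt27 were at 0.05, 0.11 and 0.14 TPM. Across the 7 libraries with at least 2 TPM of Krt71, Krt25 was between 0.461 and 0.736 of the Krt71 level, a 1.60-fold range, and Krt27 between 0.529 and 0.788, a 1.49-fold range. Krt73 ranged 1.61-fold and the hair matrix keratin Krt35 1.85-fold, while Krt28 ranged 2.39-fold, Krt75 2.30-fold and Krt26 2.28-fold. Krt72 was an exception, listed at 0 in the first piece of Vector tumor 1 and at up to 0.284 of the Krt71 level elsewhere. Hair cortex keratins varied more against Krt71: Krt33a ranged 8.90-fold, Krt81 8.95-fold and Krt86 9.55-fold. Against Krt71 the basal keratin Krt14 had a 605-fold range and Krt5 a 55.1-fold range. The 7 libraries include 2 pairs of pieces of 1 tumor, so these ranges describe libraries and not 7 independent tumors.

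**Figure D2:**
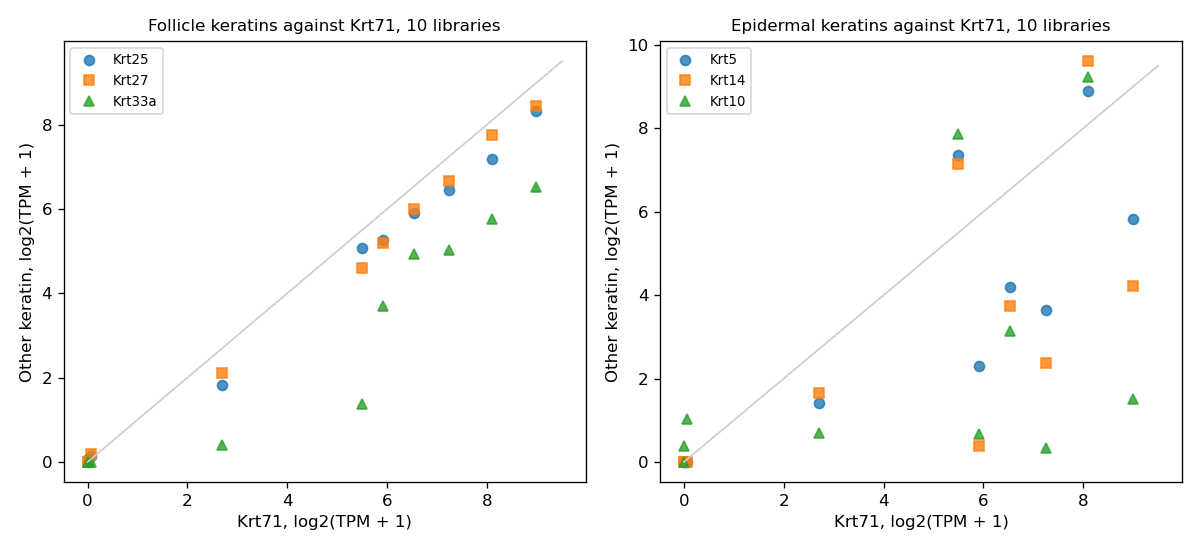
Each point is 1 of 10 libraries, with Krt71 on the horizontal axis and another keratin on the vertical axis, both as log2(TPM + 1), and the grey line marks equal values. Krt25 and Krt27 (left) follow the line at 0.461 to 0.788 of the Krt71 level in 7 libraries, Krt33a scatters more, and Krt5, Krt14 and Krt10 (right) lie far above it in 2 libraries and below it in the other 5 with Krt71.

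The sequences before the starts of 3 of these inner root sheath genes are shown. The genes were chosen because they kept proportion to each other in the 7 libraries with at least 2 TPM of Krt71. The sequence before the start of the epidermal gene Krt10 is shown beside them. Krt10 was at 597 and 231 TPM in the first pieces of Ly86 tumor 1 and Vector tumor 2, where Krt71 was at 272 and 44.2 TPM. In the other libraries Krt10 was at 7.82 TPM or less. The sequences are the 250 bases before the annotated start, from RefSeq on GRCm38.p6, matched by symbol, since the authors' build was mm39. All 4 genes lie on the minus strand, Krt25 at chr11:99322952-99323201, Krt27 at chr11:99351119-99351368, Krt71 at chr15:101743098-101743347 and Krt10 at chr11:99389365-99389614. Capitals mark TATAAA and, in Krt25, ACAAAG, which is CTTTGT on the other strand.
Krt25: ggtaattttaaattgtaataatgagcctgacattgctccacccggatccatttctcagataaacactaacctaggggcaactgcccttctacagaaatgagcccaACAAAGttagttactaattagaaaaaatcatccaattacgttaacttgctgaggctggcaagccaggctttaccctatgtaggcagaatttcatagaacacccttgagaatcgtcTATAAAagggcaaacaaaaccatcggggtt
Krt27: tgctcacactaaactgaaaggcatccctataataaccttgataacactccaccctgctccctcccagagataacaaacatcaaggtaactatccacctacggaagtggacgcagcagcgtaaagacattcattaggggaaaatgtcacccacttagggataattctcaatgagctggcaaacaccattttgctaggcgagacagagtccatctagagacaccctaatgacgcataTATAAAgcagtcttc
Krt71: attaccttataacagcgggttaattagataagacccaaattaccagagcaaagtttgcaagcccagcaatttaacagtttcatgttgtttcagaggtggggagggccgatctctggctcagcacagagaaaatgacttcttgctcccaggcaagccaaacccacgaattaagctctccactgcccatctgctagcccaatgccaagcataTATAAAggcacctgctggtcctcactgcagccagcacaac
Krt10: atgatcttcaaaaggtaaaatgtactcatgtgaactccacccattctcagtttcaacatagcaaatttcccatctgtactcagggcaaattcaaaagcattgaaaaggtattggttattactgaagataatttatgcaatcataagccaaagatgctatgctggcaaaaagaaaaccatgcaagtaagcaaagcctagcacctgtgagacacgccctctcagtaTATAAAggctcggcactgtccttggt
TATAAA begins 30 bases before the start in Krt25, 15 in Krt27, 40 in Krt71 and 26 in Krt10.

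RefSeq promoter entries matched 34 of the 52 keratin genes, with 35 starts. TATAAA, on either strand, was in 15 of the 35 keratin windows (42.9%) and in 12.4% of all 32851 windows of the same length. By class it was in 7 of 9 inner root sheath and upper follicle genes (Krt25 to Krt28 and Krt71 to Krt73), 6 of 9 hair genes, 1 of 5 suprabasal genes (Krt10), 1 of 5 simple genes (Krt20) and 0 of 2 basal genes. CTTTGA, 1 form of the TCF/LEF motif, was in 22.9% of keratin windows against 13.8% of all, and CTTTGT, another form, in 11.4% against 16.5%. The AP-1 motif TGANTCA was in 5.71% against 6.75%, and the AP-2 motif GCCNNNGGC in 14.3% against 13.7%. Each motif was searched on both strands, and a match is a description of letters, not of a bound site. In the RefSeq order 26 type I genes lie on chromosome 11, and the 25 type II genes lie on chromosome 15 with the type I gene Krt18, so neighbours share a class and the counts by class are not independent.

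Hair shaft keratins summed to 413 and 653 TPM in the pieces of Ly86 tumor 1, to 70.7 TPM in Ly86 tumor 2, and to 0.86 and 0.56 TPM in tumors 3 and 4. In the Vector tumors they summed to 2.87 and 207 TPM in the pieces of tumor 1, to 23.0 and 1.14 TPM in those of tumor 2 and to 188 TPM in tumor 3. In the first pieces of Vector tumors 1 and 2, where the hair class was at 2.87 and 23.0 TPM, Krt71 was at 5.51 and 44.2 TPM. The first piece held less hair keratin than the second in Vector tumor 1, and more in Vector tumor 2. All 15 hair genes reached 1 TPM, with maxima from 2.11 TPM (Krt40) to 90.2 TPM (Krt33a), and 14 of the 15 were highest in the second piece of Ly86 tumor 1. Krt33a, a keratin of the hair cortex, was at 53.2 and 90.2 TPM in the pieces of Ly86 tumor 1, at 12.0 TPM in tumor 2 and listed at 0 in tumors 3 and 4. In the Vector libraries it was at 0.32 and 31.8 TPM in tumor 1, at 1.59 and 0 TPM in tumor 2 and at 29.4 TPM in tumor 3. In the second piece of Ly86 tumor 1 the other cortex and cuticle genes ranged from Krt83 at 80.6 TPM, Krt34 at 76.5 TPM, Krt81 at 73.5 TPM, Krt86 at 71.9 TPM, Krt35 at 68.4 TPM, Krt31 at 60.3 TPM and Krt33b at 51.5 TPM down to Krt32 at 12.1 TPM and Krt82 at 7.63 TPM. Krt39 and Krt36 were at 3.39 and 2.94 TPM there, and Krt84 peaked at 2.87 TPM in the first piece. Unlike Krt14 and Krt10, Krt33a was low in the first piece of Vector tumor 2. Krt87 was above 0 everywhere, between 0.50 and 49.8 TPM. Several of these genes resemble each other, and 21.0% of the 100-base stretches of Krt81 occur in Krt86 and 12.5% of those of Krt31 in Krt34, so their separate values are uncertain. Among the upper follicle genes, Krt79, a keratin of the follicle's upper duct, went with the epidermal genes and not with Krt71: it was at 136 TPM in the first piece of Ly86 tumor 1, at 43.7 TPM in that of Vector tumor 2, at 1.63 TPM in Vector tumor 3 and at 0.44 TPM or less elsewhere.

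The make-up of the keratin RNA differed between libraries. The epidermal classes (basal, activated and suprabasal, with Krt80 left out) summed to 2.72 times the follicular classes (root sheath, upper follicle and hair) in the first piece of Ly86 tumor 1 and to 0.0711 times in its second piece. The ratio was 0.0584 in Ly86 tumor 2. In the Vector tumors it was 0.716 and 0.0639 in the pieces of tumor 1, 4.46 in the first piece of tumor 2 and 0.143 in tumor 3. The epidermal classes thus outweighed the follicular ones in 1 library of each group and were outweighed in 4 others, with Krt80 counted or not. The ratio does not separate epidermis from follicle, since basal and activated keratins also belong to the follicle's outer layers. Krt79, counted as follicular, went with the epidermal genes. In the second piece of Ly86 tumor 1, Krt17 was at 63.9 TPM and Krt5 at 55.4 TPM, while Krt10 was at 1.83 TPM. In the first piece of Vector tumor 1 the direction depended on Krt80: the ratio was 1.02 with it. The ratio is not read in Ly86 tumors 3 and 4 and the second piece of Vector tumor 2, where all members but Krt80 summed to 2.56, 2.99 and 1.19 TPM. Type I keratins summed to between 0.910 and 1.23 times the type II keratins in the 7 libraries with over 30 TPM of keratin.

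**Figure D3:**
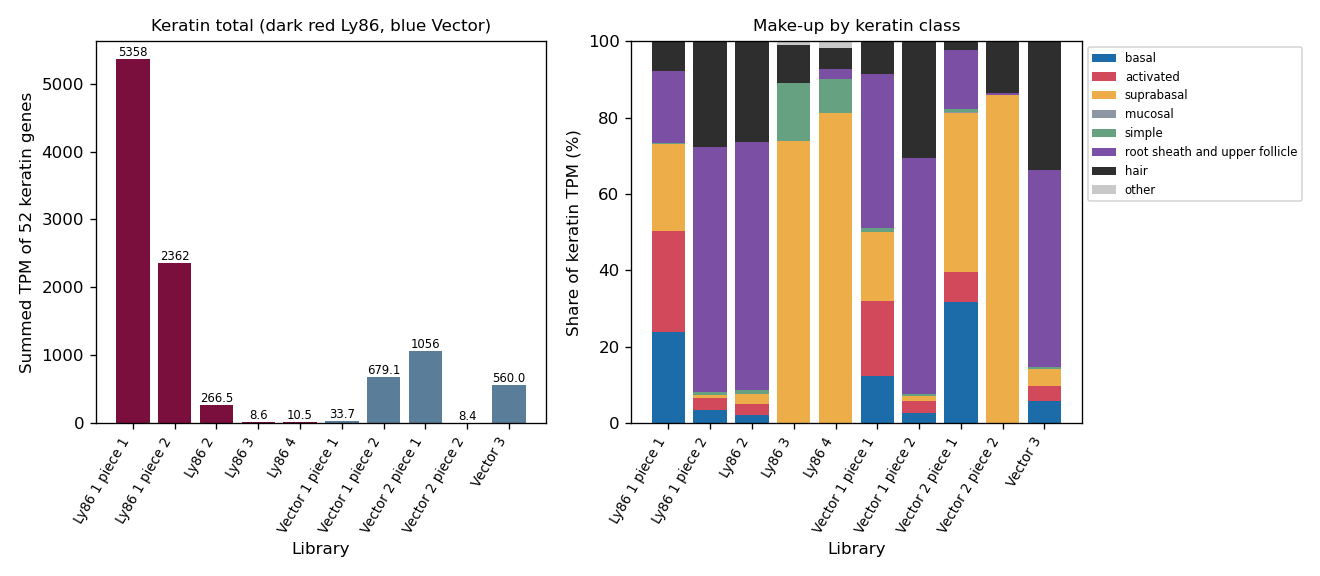
The left panel gives the summed TPM of the 52 keratin genes per library and the right panel the share of each class in that sum in percent. Inner root sheath and hair keratins make up most of the sum in the second pieces of Ly86 tumor 1 and Vector tumor 1, in Ly86 tumor 2 and in Vector tumor 3, while the 3 libraries with sums of 8.39 to 10.5 TPM consist mostly of the suprabasal class, which holds Krt80.

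Pieces of 1 tumor also differed widely for many keratins. In Ly86 tumor 1 the second piece was lower for all 3 basal, 4 activated and 4 suprabasal keratins with a mean of at least 1 TPM over the tumors, with median log2 differences of -3.07, -5.93 and -7.07 between the pieces. The same second piece was higher for all 11 hair keratins, by 0.37 (Krt34) to 1.44 (Krt35) log2 units, and for 8 of 9 root sheath and upper follicle keratins, Krt79 being the exception at -6.58. In Vector tumor 1 the second piece was higher for 26 of 32 members, with medians of 3.59 for the root sheath and 4.08 for the hair class. In Vector tumor 2 the second piece was lower for 32 of 32, with a median of -2.59 and a largest difference of -7.86 (Krt10). There is 1 library per piece, so these differences have no replicate check.

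Many companion genes of the same epithelia were high and low in the same libraries as the keratins, but not all were. The 28 genes of the cornified envelope list summed to 3208 and 880 TPM in the pieces of Ly86 tumor 1 and to 11.2 to 112 TPM in the other Ly86 tumors. The list includes the inner root sheath gene Tchh, which gave 421 of the 880 TPM. In the Vector tumors they summed to between 9.66 and 933 TPM, both ends in tumor 2. Lor, the main protein of the envelope, was at 273 TPM in the first piece of Ly86 tumor 1 and at 113 TPM in that of Vector tumor 2. It was at 5.76 TPM in Vector tumor 3 and at 0.18 TPM or less elsewhere. These 3 libraries also held most of the Krt1 and of Krtdap, at 529, 271 and 5.74 TPM. Lgals7 and Sprr1a, with higher means than Lor, reached further. They were at 142 and 159 TPM in the second piece of Ly86 tumor 1, where Krt1 was at 0.18 TPM. Sprr1a was at 41.3 TPM in the second piece of Vector tumor 1 and at 36.1 TPM in the first piece of Vector tumor 2. Tchh, which encodes trichohyalin of the inner root sheath, was at 265 and 421 TPM in the pieces of Ly86 tumor 1 and at 134 TPM in the second piece of Vector tumor 1, and had the order of Krt71 there. The 56 keratin-associated protein genes, which encode the matrix of the hair shaft, summed to 2865 and 3875 TPM in Ly86 tumor 1, 292 TPM in tumor 2, 0 TPM in tumor 3 and 0.14 TPM in tumor 4. In the Vector tumors they summed to 31.9 and 1107 TPM, 77.9 and 0 TPM, and 1025 TPM. S100a3 of the hair cuticle was at 265 TPM in the second piece of Ly86 tumor 1 and listed at 0 in Ly86 tumors 3 and 4 and the second piece of Vector tumor 2. Of the sebaceous genes, Soat1 had the highest mean and did not follow the keratins. It lay between 53.6 TPM (second piece of Vector tumor 1) and 111 TPM (first piece of Ly86 tumor 1). Far2 was at 12.1 and 13.9 TPM in the first pieces of Ly86 tumor 1 and Vector tumor 2 and at 1.23 to 3.72 TPM elsewhere. Awat1 was at 6.39 and 7.52 TPM in those 2 first pieces and listed at 0 in the other 8 libraries.

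The 16 genes of basal keratinocyte adhesion, which anchor keratin filaments, spanned a narrower range, from 128 TPM (Ly86 tumor 3) to 901 TPM (first piece of Ly86 tumor 1). Dsp, which encodes the desmosomal plaque protein that binds keratin, was at 83.5 and 29.5 TPM in the pieces of Ly86 tumor 1 and at 0.70 to 0.86 TPM in Ly86 tumors 3 and 4, piece 1 of Vector tumor 1 and piece 2 of Vector tumor 2. Dst, a cytoskeletal linker also used by other cells, lay between 75.7 and 131 TPM in all libraries. The 12 genes of the simple epithelium list, with Epcam among them, summed to 110 TPM at most, in the first piece of Ly86 tumor 1, and to 4.79 TPM at least.

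Markers of other tissues and cell types also differed between these libraries. The 13 skeletal muscle genes summed to 7.17 to 1238 TPM in the Ly86 libraries and to 29.9 to 364 TPM in the Vector libraries. Their highest library was the second piece of Ly86 tumor 1, whose first piece held 30.5 TPM, and 9 or more of the 13 genes were above 0 in each library, with Tnnc2 listed at 0 in Ly86 tumors 3 and 4. The 8 adipocyte genes summed to 17.8 to 129 TPM in the Ly86 libraries and to 3.22 to 392 TPM in the Vector libraries, highest in the first piece of Vector tumor 2, and in its second piece 7 of the 8 were listed at 0. The 11 fibroblast genes summed to 1053 to 2897 TPM in the Ly86 libraries and to 136 to 5123 TPM in the Vector libraries, and the 11 macrophage genes to 1806 to 3655 and 368 to 5110 TPM, all above 0 in every library. The first piece of Vector tumor 2 was the highest and its second piece the lowest library for both lists. The part of these tissues in the keratin values was not tested.

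Between the groups, no keratin difference exceeded the spread between tumors. For the test, the pieces of a tumor were averaged as log2(TPM + 1) and genes with a mean of at least 1 TPM over the 7 tumors were kept, which left 32 keratin genes. Krt82, at a mean of 1.44 TPM, was just inside this limit and Krt39, at 0.898 TPM, just outside. By limma, 0 of the 32 passed an adjusted p of 0.05, where the share over all 14556 genes tested was 0%. At an unadjusted p under 0.05 there were 0 of 32, against 10.8% of all genes (1565), and in 0 of 32 did the tumors of the groups not overlap, against 10.5% of all genes (1523). Their SEs ran from 0.54 to 2.13 log2 units with a median of 1.38, while the median SE over all genes was 0.19.

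Of the 32, 6 were higher and 26 lower in the Ly86 tumors, with a median log2 difference of -0.32, while all tested genes had a median of -0.037 (6373 higher, 8183 lower). With a pseudocount of 0.1 in place of 1 there were 2 higher and 30 lower (median -1.03), with pieces averaged as TPM 5 and 27 (median -0.73), and with limma's array weights 3 and 29 (median -1.26). The direction rested on single tumors. The median over the 32 keratins was 5.48, 2.65, 0 and 0 log2(TPM + 1) in Ly86 tumors 1 to 4 and 2.14, 1.33 and 3.84 in Vector tumors 1 to 3. The Ly86 group thus held both the highest tumor and the 2 lowest, and the Vector tumors lay between them. Without Ly86 tumor 1, 32 of 32 keratins were lower, with a median of -1.47, and 7 had an unadjusted p under 0.05, where 10.2% of all genes (1487) did in that fit. Without Ly86 tumor 3, without Ly86 tumor 4 or without Vector tumor 3, the count turned, to 25 higher and 7 lower for each of the Ly86 tumors (median 0.33) and to 20 higher and 12 lower for the Vector tumor (median 0.25). Without Vector tumor 2 the median was -0.91 and without Ly86 tumor 2 it was -0.50. With Vector tumor 2 represented by its second piece alone there were 20 higher and 12 lower, with a median of 0.17. With Ly86 tumor 1 alone represented by its second piece there were 3 higher and 29 lower, with a median of -0.26. In that fit 2 keratins had an unadjusted limma p under 0.05, as did 1841 of all 14556 genes. With both Ly86 tumor 1 and Vector tumor 2 represented by their second pieces there were 15 higher and 17 lower, with a median of -0.0073.

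**Figure D4:**
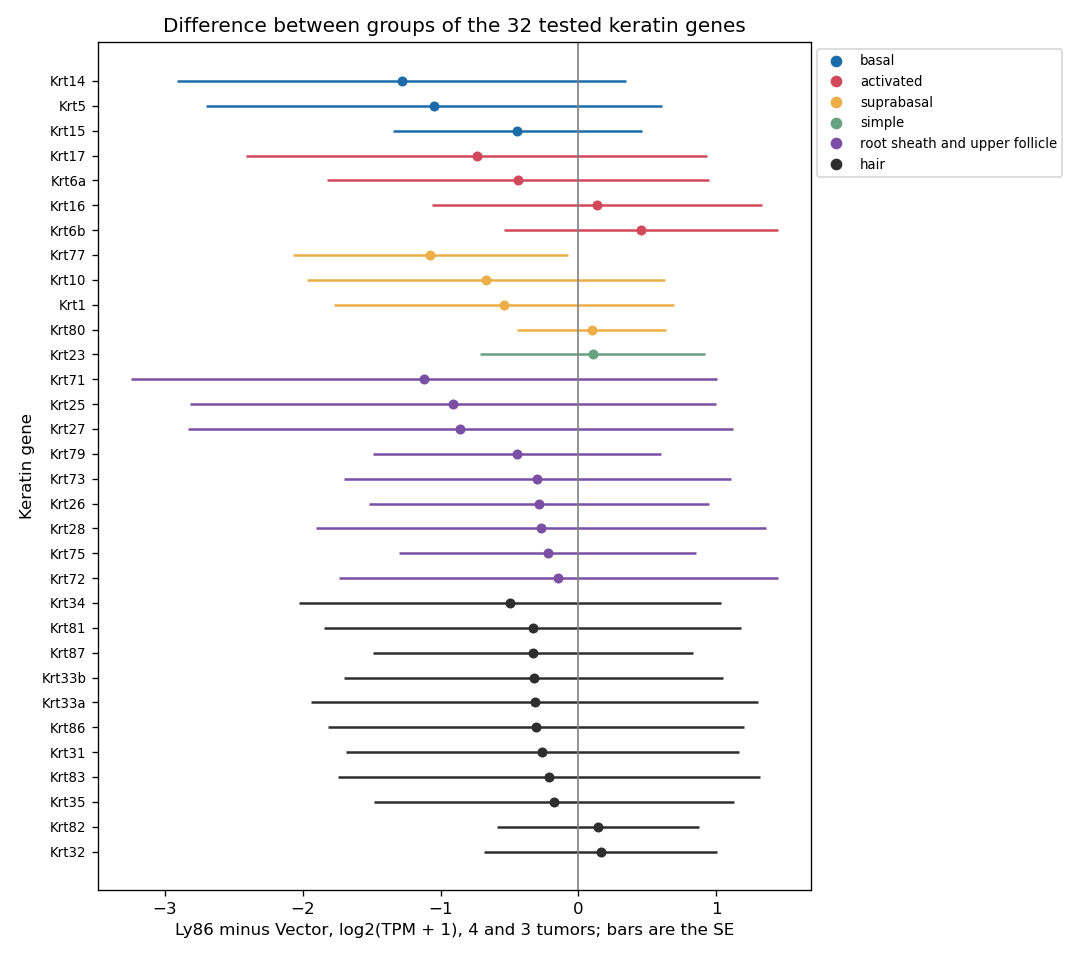
Points give the Ly86 minus Vector difference in log2(TPM + 1) of each tested keratin gene, colored by class, and bars its SE over 4 and 3 tumors. The SE bars of 31 genes cross 0, the exception being Krt77 at -1.07 with an SE of 0.99, whose limma adjusted p was 0.726.

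By class, the 3 basal keratins were lower in the Ly86 tumors, from -1.28 to -0.44 log2 units, and none passed. Krt14 averaged 1.82 ± 3.40 (SD, n = 4) log2(TPM + 1) with Ly86 and 3.11 ± 0.95 (SD, n = 3) with the vector, a difference of -1.28 with an SE of 1.63 and a limma adjusted p of 0.816. Its two-sided exact permutation p over the 35 assignments of tumors was 0.571, where 0.0286 is the smallest these numbers of tumors allow. Of the 4 activated keratins 2 were higher and 2 lower, and Krt17 differed by -0.74 (SE 1.67, limma adjusted p = 0.917), from 2.64 ± 3.51 (SD, n = 4) against 3.38 ± 0.80 (SD, n = 3). Of 4 suprabasal keratins 3 were lower. Krt10 averaged 1.86 ± 2.35 (SD, n = 4) against 2.53 ± 1.79 (SD, n = 3), a difference of -0.67 (limma adjusted p = 0.898). The lowest unadjusted p of any keratin, 0.312, belonged to Krt77, which averaged 0.80 ± 1.61 (SD, n = 4) against 1.88 ± 1.64 (SD, n = 3), with an exact permutation p of 0.286. In the Ly86 group Krt77 was above 0 in tumor 1 alone, and in the Vector group it was above 0.10 TPM in tumors 2 and 3. Krt80 differed by 0.095 with an SE of 0.54, the smallest among the keratins (adjusted p = 0.970).

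Among follicle genes, all 9 tested root sheath and upper follicle keratins were lower in the Ly86 tumors, from -1.12 to -0.14 log2 units, with a median of -0.30. Krt71 averaged 3.63 ± 4.29 (SD, n = 4) log2(TPM + 1) against 4.75 ± 1.90 (SD, n = 3), a difference of -1.12 whose SE of 2.13 was the largest among the keratins (limma adjusted p = 0.896). Its difference was 0.089 without Ly86 tumor 3, 0.065 without Ly86 tumor 4 and -2.76 without Ly86 tumor 1. Of 11 hair keratins 9 were lower and 2, Krt32 and Krt82, higher, with a median of -0.31. Krt33a differed by -0.32 (SE 1.62, adjusted p = 0.966), by 0.76 without Vector tumor 3, and by 0.50 without Ly86 tumor 3 or without Ly86 tumor 4. The simple keratin Krt23 differed by 0.10 (SE 0.82, adjusted p = 0.979) and by -0.70 without Ly86 tumor 1. A p that misses the threshold does not show that the groups had equal keratin levels, and with SEs of this size the comparison is imprecise for every follicle keratin.

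**Figure D5:**
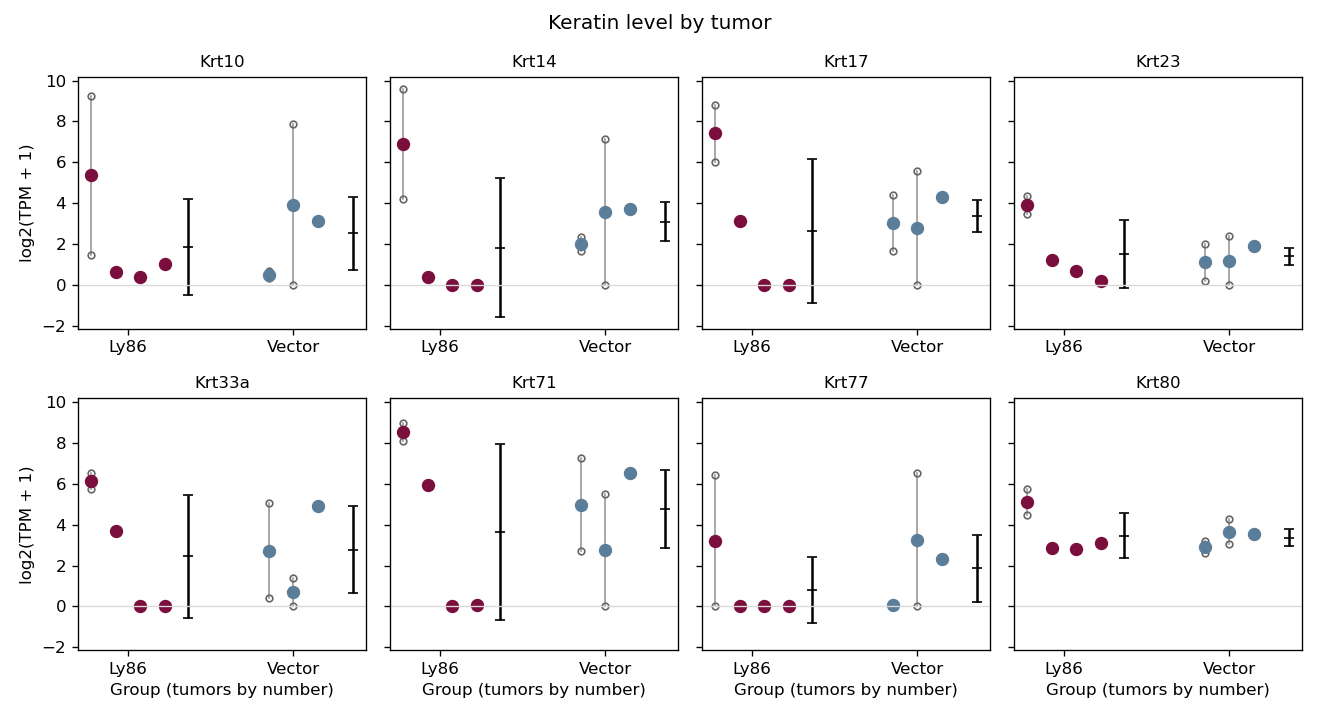
Each panel shows 1 keratin gene in log2(TPM + 1), with a filled point per tumor, open points for the pieces of divided tumors, and a bar for the group mean ± SD. In the Ly86 group tumor 1 is the highest point in all 8 panels, and in all panels but Krt71 the 2 pieces of Ly86 tumor 1, and those of Vector tumor 2, lie further apart than the group means.

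At an adjusted p of 0.05, limma called 0 genes of each of the 14 companion lists. Of the 23 cornified envelope genes tested, 9 were higher and 14 lower, with a median log2 difference of -0.036 and 0 at an unadjusted p under 0.05. Of the 47 keratin-associated protein genes tested, 8 were higher and 39 lower (median -0.27), and of 11 hair follicle regulators 5 were higher and 6 lower (median -0.083), again with 0 at an unadjusted p under 0.05. Of 14 basal adhesion genes 4 were higher and 10 lower (median -0.056). By contrast, all 11 fibroblast genes were higher in the Ly86 tumors (median 1.47), 10 of them at an unadjusted p under 0.05, as were all 11 macrophage genes (median 1.25), 9 of them at that level, and all 8 T cell genes (median 1.18), 4 of them. Over all genes tested, 10.8% were at that level. Of 12 skeletal muscle genes 1 was higher and 11 lower (median -0.54), with 0 at that level.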

How the data were processed

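RNA was extracted with TRIzol and sequenced from polyadenylated RNA on a NovaSeq instrument, per the labels' protocols. The submitters' processing notes name STAR 2.7.10b, RSEM 1.3.3 and the build mm39. The deposited values are log2(TPM + 1), read from the values themselves: turned back to TPM, 99.9% were multiples of 0.01 within 1e-04 hundredths. The TPM summed to 994679 to 996446 per library, which keep no read depth, so no counting interval is given. The added 1 makes fold changes of low genes understated.

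The tumor was the replicate, and log2 values of its pieces were averaged. Genes with a mean of at least 1 TPM entered limma 3.58.1 (R 4.3.3, lmFit, eBayes with trend), with Benjamini-Hochberg adjustment over all 14556 genes and a threshold of 0.05. The fit was tested on simulated data. Single genes also had an exact permutation test. The members, classes and companion lists were chosen with earlier results of these data known. By the rule for named genes, keratins with a mean of at least 1 TPM were to have each value, difference and p in the text. All 32 differences and SEs are plotted, and the text gives p for the most abundant member of each class, for Krt77 (lowest p) and for Krt80 (chosen after its values were seen), and ranges for the others. Shared stretches were counted in GENCODE M21 transcripts, in which all 52 symbols matched. Python 3.11.15 and matplotlib 3.10.9 made the figures. The alternatives were pseudocounts, filters, scalings, variance models, uses of the pieces, a block for the tumor number, and omission of each tumor in turn.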

Additional observations from a re-analysis of the deposited data

Results flagged for a closer look

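For 9 of the 32 tested keratins, Ly86 tumor 1, taken as the mean of its 2 pieces, stood apart from the other 3 Ly86 tumors. Its gap to the next tumor, as a share of the range of the 4, exceeded the critical value of Dixon's test (95% level). The 95% level assumes normally distributed values, the genes are not independent, and the share over all genes tested was not counted. In log2(TPM + 1), tumor 1 was at 4.57 for Krt1, 4.07 for Krt6b, 3.21 for Krt77 and 3.81 for Krt79. The other 3 Ly86 tumors were at 0 for these genes, so any value above 0 in tumor 1 would have been flagged. Tumor 1 was at 5.36 for Krt10 (next 1.02), 6.91 for Krt14 (0.39), 5.06 for Krt16 (0.19), 5.85 for Krt6a (0.057) and 5.08 for Krt80 (3.08). These are 8 genes of the basal, activated and suprabasal classes and the upper follicle gene Krt79. In 3 of the 4 Ly86 tumors there was 1 piece, and in tumor 1 the value is the mean of 2 pieces. For Krt1, Krt6b, Krt77 and Krt79 that mean rested on the first piece, at 8.90, 8.14, 6.42 and 7.10. The second piece was at 0.24, 0, 0 and 0.53 for these genes, at or near the other 3 tumors. For Krt10, Krt14, Krt16, Krt6a and Krt80 the second piece was below the first but still above the other 3 tumors. The Vector group, with 3 tumors, was not examined in this way.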

How the results depend on the processing

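No keratin gene was called under any setting run (0 throughout). The median keratin difference, -0.32, stayed within the spread between tumors (pooled SD 2.18) but ranged from -1.47 (without Ly86 tumor 1) to 0.36 (10 libraries, with a random block for the tumor), and from -1.47 to 0.33 when single tumors were left out. It was -1.03 with a pseudocount of 0.1, -0.73 with pieces averaged as TPM and -1.26 with array weights. The count of all genes called, 0, became 1 with first pieces only, 6 with second pieces only, 1 without the first piece of Vector tumor 2, 1832 with array weights (largest weight 22.8), and 0 to 2 without single tumors. After the data were seen, 3 uses of the pieces were added: without the first piece of Ly86 tumor 1, without that of Vector tumor 2 as well (47 genes called), and pieces averaged as TPM. The cause of these changes was not tested.

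Among the 8 named genes, the sign turned as follows. With the random block Krt17 was 0.068 and Krt33a 0.52, and with first pieces only Krt33a was 0.13. Without the first piece of Vector tumor 2, Krt10 was 0.64, Krt17 0.20 and Krt77 0.015. Without the first piece of Ly86 tumor 1, Krt23 was -0.0023 and Krt80 -0.064, and without both first pieces Krt33a was 0.0045. With pieces averaged as TPM Krt23 was -0.12, and with array weights -0.20. Leaving out single tumors gave ranges of -1.84 to 0.030 for Krt10, -2.33 to 0.14 for Krt17, -0.70 to 0.54 for Krt23, -1.54 to 0.76 for Krt33a, -2.76 to 0.089 for Krt71 and -0.45 to 0.31 for Krt80, while Krt14 (-2.98 to -0.67) and Krt77 (-1.98 to -0.38) kept their sign. Deviations of same-numbered tumors from their group means correlated at -0.17, -0.11 and -0.31 over the genes tested. Differently numbered tumors were not compared, so these values do not show whether the numbers pair the tumors. With the tumor number as a replicate block, 0 genes and 0 keratins were called, the median was 0.33, and Krt17 was 0.14, Krt33a 0.50 and Krt71 0.065.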
